A study of Mus musculus with 16 samples.

Results

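Immediate early and activity-regulated genes were followed across brain arrays from mice overexpressing mutant Twinkle and from wild-type mice. The group was a list of 38 gene symbols, and a gene was measured when at least 1 probe set carried that symbol and no other in the platform annotation. By that rule 37 of the 38 were found, read by 72 probe sets, among 18168 genes in all. Arl4d was not analysed here. The list was not chosen from a contrast by its rule, but it was proposed with results of these data known.

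Twinkle is the helicase of mitochondrial DNA replication, and the mutant mice serve as a PEO model, PEO being progressive external ophthalmoplegia, a disease of eye and limb muscle with deletions of mitochondrial DNA. Total RNA from cerebellum or hippocampus was hybridised to Affymetrix arrays. There were 16 arrays, 4 for each of 4 groups: mutant Twinkle overexpressors and wild types, each sampled from both regions. In order of replicate number, the mutants were 24, 24, 21 and 21 months old and the wild types 26, 24, 21 and 23 months, in both regions. The labels give neither the strain nor the sex nor the promoter of the transgene, and do not say which mutation of Twinkle was used. All animals were old, and no young group was analysed here. Every value is a log2 difference from the median of the 8 arrays of its region, as the deposited values were centred, so there is no expression level and cerebellum cannot be set against hippocampus. Replicate numbers below refer to the labels.

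Immediate early genes are switched on within minutes of neuronal firing or growth factor signalling, without new protein synthesis. Calcium entry and the MAP kinase cascade activate factors already bound at their promoters, chiefly CREB at cAMP response elements and serum response factor with its partners at CArG boxes. The first products are transcription factors such as Fos, Egr1, Nr4a1 and Npas4, and effectors that act at the synapse, such as Arc. Phosphatases of the Dusp family are induced with them and switch the kinases off again. In the hippocampus these genes are known for marking neurons active during learning, and their mRNAs decay quickly after stimulation ends.

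The promoters of 5 members are printed because 4 of them, Fos, Nr4a1, Npas4 and Dusp1, varied together between the cerebellum arrays, while Inhba followed a different pattern. Each is the 250 bases before the annotated start, written 5′ to 3′ on the strand of the gene, from RefSeq on build GRCm38.p6, with the cAMP response element core TGACG in capitals (CGTCA where it lies on the other strand, and TGACGTCA where both meet).
Fos, chr12:85473640-85473889, + strand: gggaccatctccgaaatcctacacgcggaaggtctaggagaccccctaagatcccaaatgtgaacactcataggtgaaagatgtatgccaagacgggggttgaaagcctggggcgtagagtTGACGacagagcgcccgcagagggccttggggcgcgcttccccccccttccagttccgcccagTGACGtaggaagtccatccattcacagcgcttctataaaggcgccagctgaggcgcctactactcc
Nr4a1, chr15:101266596-101266845, + strand: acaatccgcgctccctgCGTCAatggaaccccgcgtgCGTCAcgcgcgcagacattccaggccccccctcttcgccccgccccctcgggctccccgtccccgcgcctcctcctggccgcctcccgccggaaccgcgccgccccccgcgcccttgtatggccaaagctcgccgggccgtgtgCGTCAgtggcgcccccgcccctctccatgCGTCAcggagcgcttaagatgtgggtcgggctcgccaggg
Npas4, chr19:4989972-4990221, - strand: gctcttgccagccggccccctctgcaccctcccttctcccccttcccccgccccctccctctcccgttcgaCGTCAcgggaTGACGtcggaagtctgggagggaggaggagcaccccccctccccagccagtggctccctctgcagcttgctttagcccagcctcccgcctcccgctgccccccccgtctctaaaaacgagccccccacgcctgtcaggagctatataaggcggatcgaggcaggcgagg
Dusp1, chr17:26508473-26508722, - strand: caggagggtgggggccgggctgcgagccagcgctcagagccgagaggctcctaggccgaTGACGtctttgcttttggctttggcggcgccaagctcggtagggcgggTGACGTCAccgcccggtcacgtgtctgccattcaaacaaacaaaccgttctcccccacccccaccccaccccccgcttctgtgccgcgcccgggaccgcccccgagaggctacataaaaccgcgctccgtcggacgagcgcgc
Inhba, chr13:16011601-16011850, + strand: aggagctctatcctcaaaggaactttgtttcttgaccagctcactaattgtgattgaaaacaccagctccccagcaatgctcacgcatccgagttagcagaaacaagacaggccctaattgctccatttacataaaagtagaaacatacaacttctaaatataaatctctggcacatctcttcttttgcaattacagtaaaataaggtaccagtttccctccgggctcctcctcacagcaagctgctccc

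The Fos promoter held 2 copies of the core, Nr4a1 held 4, all on the opposite strand, and Npas4 held 1 on each strand. In Dusp1, which encodes a phosphatase of MAP kinases, the full palindrome TGACGTCA lay 143 to 136 bases before the start, with a further core 191 to 187 bases before it. The Inhba window contained none of the 5 motifs searched. A promoter was at hand for 29 members, and 19 of them had TGACG on either strand in at least 1 promoter, against 19.8% of all 27025 genes with a promoter. Among the 23 members with exactly 1 promoter in the table it was 14, against 17.5% of all genes with exactly 1. TGACGTCA, which contains TGACG on both strands, was found in 5 members (Btg2, Dusp1, Errfi1, Maff and Plk2), against 1.77% of genes. Among members with exactly 1 promoter it was 3 of 23, against 1.61%. The Egr site GCGNGGGCG was in 9 of the 29, against 5.33% of genes. The CArG box was in 2, Dusp5 and Egr2, against 1.62%, and the AP-1 site TGANTCA in 1, Bdnf, against 7.82%. All motifs were searched on both strands, a match is only a run of letters, and the shares were not matched for base composition. Only the 250 bases before a start were searched, so a promoter without a match can hold the motif farther upstream. Members with TGACG included Nr4a2, whose correlation with Fos over the cerebellum arrays was 0.93. They also included Plk2 at -0.05, Maff at 0.04 and Egr2 at -0.13, while Fosl2, at 0.79, had a promoter without it. Whether the core goes with variation alongside Fos was not tested.

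Differences between individual arrays were the main feature of these genes. Fos, the partner of Jun in the AP-1 factor, spanned 3.22 log2 units over the 8 cerebellum arrays, a 9.3-fold range. In the hippocampus the widest member, Egr2, spanned 3.44 units, a 10.9-fold range. The range over 8 arrays exceeded 1 log2 unit for 8 of 37 members in the cerebellum, where 0.705% of all genes did. In the hippocampus it did so for 22 of 37 members, against 3.14% of all genes. The median range of a member was 0.43 in cerebellum and 1.10 in hippocampus, where that of all genes was 0.31 in each. In bulk tissue, fewer cells expressing a gene and less of its RNA per cell cannot be told apart.

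**Figure D1:**
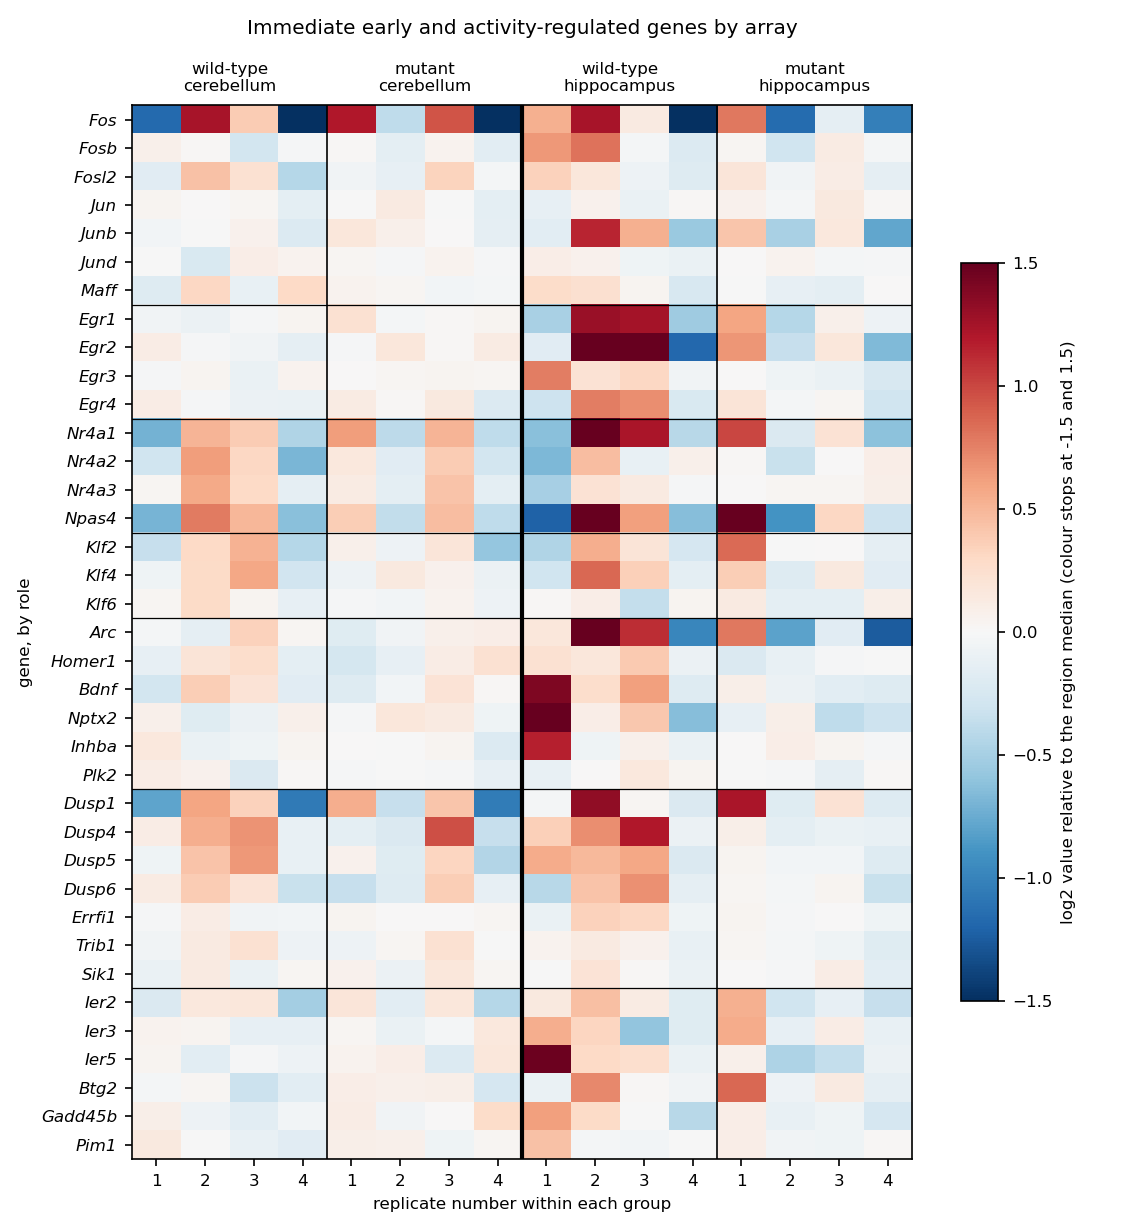
Heat map of the 37 measured genes (rows, ordered by role, with lines between roles) in the 16 arrays (columns, by group and replicate number). Colour gives the log2 value relative to the median of the region, with colours stopping at -1.5 and 1.5. The darkest cells lie in the hippocampus, mostly in wild-type replicates 1, 2 and 3, and in the row of Fos in both regions.

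Before the values of single genes, 5 arrays have to be set apart. Their markers of a neighbouring tissue stood more than 0.5 above the region median. On wild-type hippocampus replicate 1, 9 measured markers of cerebellar granule neurons averaged 2.40 and 8 of Purkinje cells 1.50, while 9 of hippocampal pyramidal neurons averaged -0.78. Its choroid plexus markers averaged 0.82. Mutant hippocampus replicate 1 carried cerebellar granule markers at 0.87 and meningeal markers at 1.05. Choroid plexus markers averaged 2.05 on mutant hippocampus replicate 4 and 0.69 on wild-type cerebellum replicate 1, and blood cell markers 0.98 on wild-type hippocampus replicate 3. With no expression level, the labelled tissue could be checked only in this relative way. Leaving out these arrays keeps 2 mutants and 2 wild types in the hippocampus, and 4 mutants and 3 wild types in the cerebellum. Differences without them are given for some genes only, and a gene without such a value may have moved as well. Twnk, the gene of Twinkle itself, did not check the genotype labels. In the cerebellum its mutants spanned -0.013 to 0.112 and its wild types -0.147 to 0.010, and in the hippocampus the mutants spanned -0.008 to 0.029 and the wild types -0.107 to 0.050. The groups overlapped in both regions, and whether its probe sets read the transgene is not given in the sources used here.

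The first comparison asked whether the genes differed between mutants and wild types in the cerebellum. None of the 37 passed an adjusted p of 0.05 in limma, as none of all 18168 genes did (0%), and the smallest adjusted p of a member was 0.896. At an unadjusted p under 0.05 there were also 0 members, against 2.24% of genes lower and 3.15% higher. Of the members, 15 lay below 0 in the mutants (46.4% of all genes did), and their median difference was 0.028, with 0.007 for all genes.

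Among the AP-1 factors, Fos read 1.20, -0.38, 0.94 and -1.53 in the 4 cerebellum mutants and -1.16, 1.24, 0.38 and -1.98 in the wild types. Both genotypes held high and low arrays, and they overlapped across nearly the whole range. The difference was 0.44 with a standard error (SE) of 0.76 (limma, adjusted p = 0.97), and it ran from -0.10 without wild-type replicate 4 to 0.98 without wild-type replicate 2. It was 0.18 without the array with choroid plexus markers. Npas4, a factor specific to neurons that responds to calcium, read 0.37, -0.37, 0.46 and -0.38 in mutants and -0.69, 0.78, 0.49 and -0.63 in wild types. The arrays above 0 were the same 4 as for Fos, mutant replicates 1 and 3 and wild-type replicates 2 and 3, and the difference was 0.03 (SE 0.61), or -0.19 without the array with choroid plexus markers. Egr1, a zinc-finger factor, varied little, with mutants at 0.22, -0.03, 0.01 and 0.04 and wild types at -0.05, -0.09, -0.01 and 0.05. Arc, a capsid-like protein that regulates AMPA receptor trafficking, read -0.18, -0.06, 0.07 and 0.10 in mutants and -0.03, -0.14, 0.35 and 0.03 in wild types. The differences of Egr1 and Arc were 0.09 (SE 0.34) and -0.07 (SE 0.44), with overlapping groups.

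Of the phosphatase genes, Dusp5, Dusp4 and Dusp6 had the lowest differences of all members in the cerebellum, and Dusp1 lay above 0 at 0.12 (SE 0.45). Dusp5, a nuclear phosphatase of ERK, read 0.07, -0.18, 0.33 and -0.44 in mutants and -0.07, 0.43, 0.65 and -0.11 in wild types. Wild-type replicates 2 and 3 were the highest and the groups overlapped, with a difference of -0.28 (SE 0.20, limma adjusted p = 0.90). Dusp4, also a nuclear MAP kinase phosphatase, read -0.15, -0.21, 0.96 and -0.34 in mutants and 0.11, 0.55, 0.67 and -0.11 in wild types, a difference of -0.24 (SE 0.27). Mutant replicate 3 was above every wild type, and without it the difference was -0.54. Dusp6, the cytoplasmic ERK phosphatase, read -0.35, -0.19, 0.37 and -0.12 in mutants and 0.12, 0.39, 0.20 and -0.33 in wild types, a difference of -0.17 (SE 0.21). The same wild-type arrays, 2 and 3, were again high for Nr4a3, an orphan nuclear receptor, at 0.57 and 0.29, with replicates 1 and 4 at 0.03 and -0.14. Its mutants read 0.12, -0.14, 0.43 and -0.14 and its difference was -0.12 (SE 0.16). Gadd45b, linked to DNA demethylation and stress signalling, read 0.11, -0.05, 0.004 and 0.28 in mutants and 0.08, -0.08, -0.16 and -0.04 in wild types, a difference of 0.13 (SE 0.15). Klf6, a Kruppel-like factor, read -0.01, -0.04, 0.05 and -0.07 in mutants and 0.03, 0.29, 0.05 and -0.13 in wild types, a difference of -0.08 (SE 0.10). Bdnf, the neurotrophin, read -0.19, -0.04, 0.20 and 0.02 in mutants and -0.27, 0.37, 0.20 and -0.17 in wild types, a difference of -0.04 (SE 0.23), or -0.14 without the array with choroid plexus markers. For both, wild-type replicate 2 was the highest of the 8 arrays. In no member did the 4 mutants and 4 wild types of the cerebellum fail to overlap, a separation seen in 1.02% of genes in the lower direction and 1.44% in the higher.

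**Figure D2:**
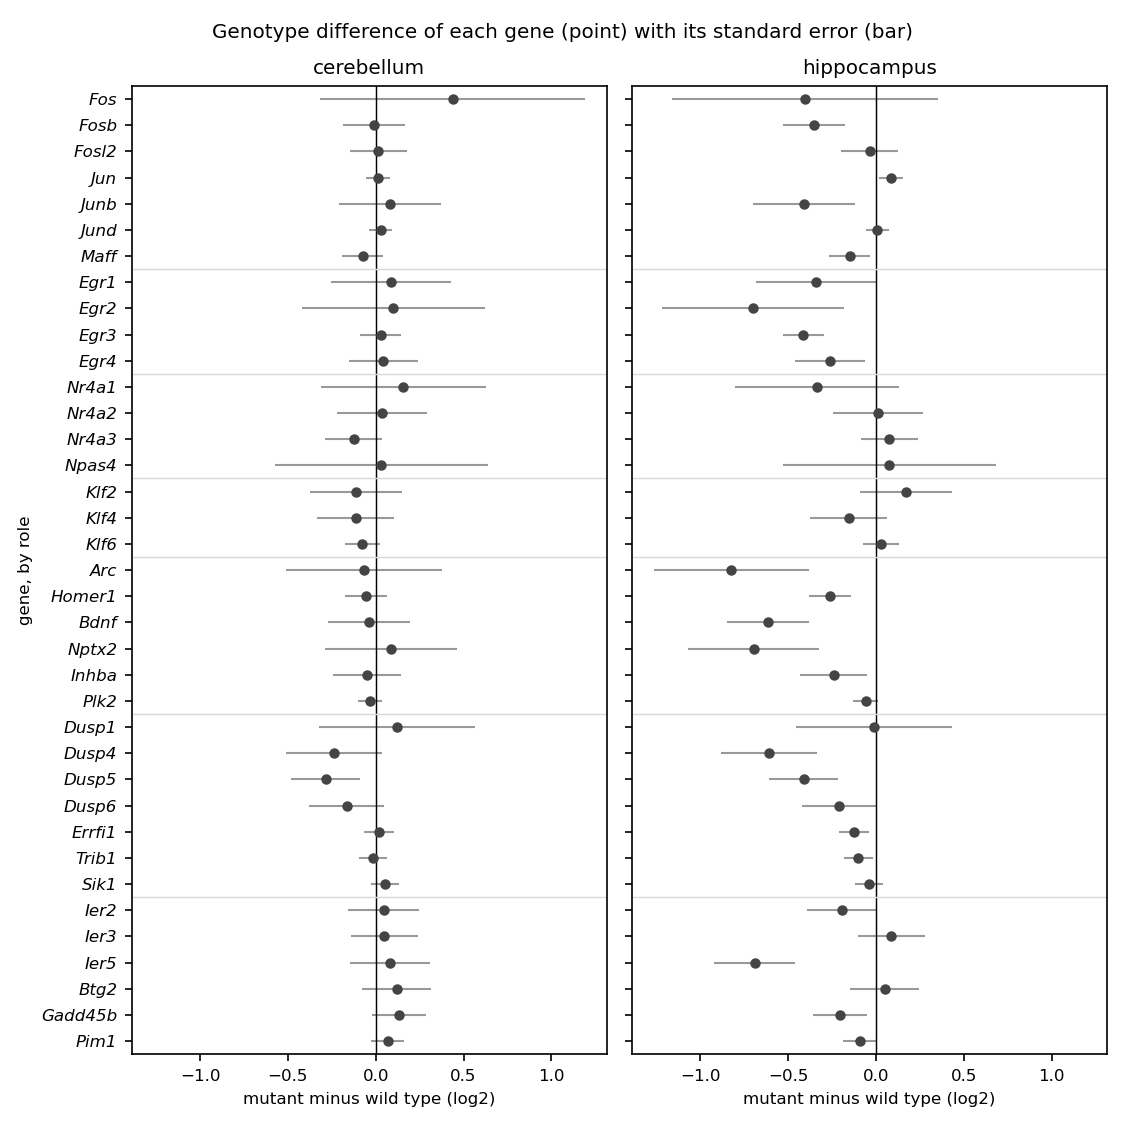
Difference between mutants and wild types (horizontal axis, log2, mutant minus wild type) for each gene (rows, by role) in cerebellum and hippocampus, with the standard error from limma as the bar. In the cerebellum 15 of 37 points lie below 0, and in the hippocampus 28 of 37, and none passed an adjusted p of 0.05.

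The same question in the hippocampus again gave 0 members called, with 0% of all genes called and 0.0571 as the smallest adjusted p of any gene. More members were low than in the whole table: 28 of 37 lay below 0 in the mutants, against 41.1% of genes. At an unadjusted p under 0.05, 5 members were lower (2.75% of genes) and 0 higher (5.28% of genes). These 5 were Egr3, Ier5, Bdnf, Dusp4 and Homer1, with adjusted p-values of 0.43 to 0.61. The fit gave both regions the same spread for a gene, while members ranged more widely in hippocampus (median 1.10) than in cerebellum (0.43). The counts of the 2 regions at an unadjusted p are therefore not on an equal footing. The members' median difference was -0.195, with 0.020 for all genes. It was -0.169 without the 5 arrays carrying markers of another tissue, when 32 of 37 lay below 0, and it ran from -0.302 without wild-type replicate 4 to -0.066 without wild-type replicate 2.

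By role, all 4 Egr factors, all 6 synaptic and secreted effectors and all 7 feedback inhibitors of kinase signalling had differences below 0, with medians of -0.38, -0.44 and -0.13. For the AP-1 factors it was 5 of 7, with a median of -0.15. Of the 4 Nr4a receptors and Npas4, 1 lay below 0, and of the 3 Kruppel-like factors also 1. Among the 6 other early response genes 4 lay below 0. No role group had a member past the threshold, so these are counts of direction only. Some directions changed without the arrays with other tissue. Npas4 was then at -0.90, Klf2 at -0.15 and Nr4a1 at -0.57, and all probe sets of Klf4 and Klf6 lay below 0. Probe sets of Nr4a2 ran from -0.70 to 0.002 and those of Nr4a3 from -0.23 to 0.10. Among the effectors, those of Inhba had 0.09 and 0.22 and those of Nptx2 -0.06 and 0.30.

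Egr3, a zinc-finger factor induced later and longer than Egr1, read 0.77, 0.22, 0.31 and -0.05 in wild-type hippocampus and 0.001, -0.07, -0.10 and -0.24 in mutants. Wild-type replicates 1, 2 and 3 lay above every mutant and replicate 4 lay among them. The means were 0.31 ± 0.34 and -0.10 ± 0.10 (SD, n = 4 each), a difference of -0.41 (SE 0.12, limma adjusted p = 0.43), and it was -0.17 without the arrays with other tissue.

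Ier5, an early response gene that modulates heat shock factor activity, read 1.47, 0.30, 0.25 and -0.10 in wild types and 0.07, -0.47, -0.36 and -0.09 in mutants. Wild-type replicate 1 stood alone at the top, and it is the array with cerebellar markers. The means were 0.48 ± 0.68 and -0.21 ± 0.25, and the difference was -0.69 (SE 0.23, limma adjusted p = 0.49). Leaving out wild-type replicate 1 brought it to -0.36. All 3 of its probe sets pointed the same way, from -0.82 to -0.52.

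Bdnf supports synapse growth and is transcribed from several activity-dependent promoters. Its wild-type hippocampus arrays read 1.40, 0.27, 0.62 and -0.19 and its mutants 0.09, -0.09, -0.16 and -0.20. Again 3 of 4 wild types were above every mutant and replicate 4 was not. The difference was -0.61 (SE 0.23, limma adjusted p = 0.54), and it moved to -0.32 when wild-type replicate 1 was left out and to -0.16 when all arrays carrying other tissue were.

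Dusp4 and Dusp5 kept this order. Dusp1, also a nuclear phosphatase, did not, with overlapping groups and a difference of -0.01 (SE 0.45). Without the arrays with other tissue the Dusp1 difference was -0.54. Dusp4 read 0.35, 0.69, 1.20 and -0.09 in wild types and 0.09, -0.14, -0.11 and -0.12 in mutants, a difference of -0.61 (SE 0.27, limma adjusted p = 0.60). Dusp5 read 0.56, 0.48, 0.59 and -0.22 in wild types and 0.04, -0.04, -0.04 and -0.20 in mutants, a difference of -0.41 (SE 0.20, limma adjusted p = 0.61). For both, wild-type replicates 1, 2 and 3 were above all mutants and replicate 4 lay within or below them, and without the arrays with other tissue the differences were -0.43 and -0.17.

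Arc had the lowest difference of all members in the hippocampus. Its wild types read 0.16, 1.58, 1.11 and -0.98 and its mutants 0.79, -0.80, -0.16 and -1.25. The groups overlapped over most of their range, with mutant replicate 1 above 2 of the 4 wild types. The means were 0.47 ± 1.13 and -0.36 ± 0.89, and the difference was -0.82 (SE 0.44, limma adjusted p = 0.63). Leaving out wild-type replicate 2 brought it to -0.45. Egr1 read -0.49, 1.30, 1.25 and -0.53 in wild types and 0.59, -0.42, 0.07 and -0.07 in mutants, a difference of -0.34 (SE 0.34, limma adjusted p = 0.81). Here wild types were both the highest and the lowest arrays, and without wild-type replicate 2 the difference was -0.04. Without the arrays with other tissue it was -0.56.

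Fos in the hippocampus read 0.54, 1.23, 0.13 and -1.80 in wild types and 0.79, -1.16, -0.13 and -1.03 in mutants. Its difference was -0.40 (SE 0.76, limma adjusted p = 0.91), and it ran from -1.01 without wild-type replicate 4 to -0.002 without wild-type replicate 2. Npas4 read -1.21, 1.84, 0.62 and -0.64 in wild types and 1.82, -0.90, 0.31 and -0.31 in mutants. With 1 very high array in each genotype, its difference was 0.08 (SE 0.61, limma adjusted p = 0.98), and the sign changed under several settings, to -0.90 without the arrays with other tissue.

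**Figure D3:**
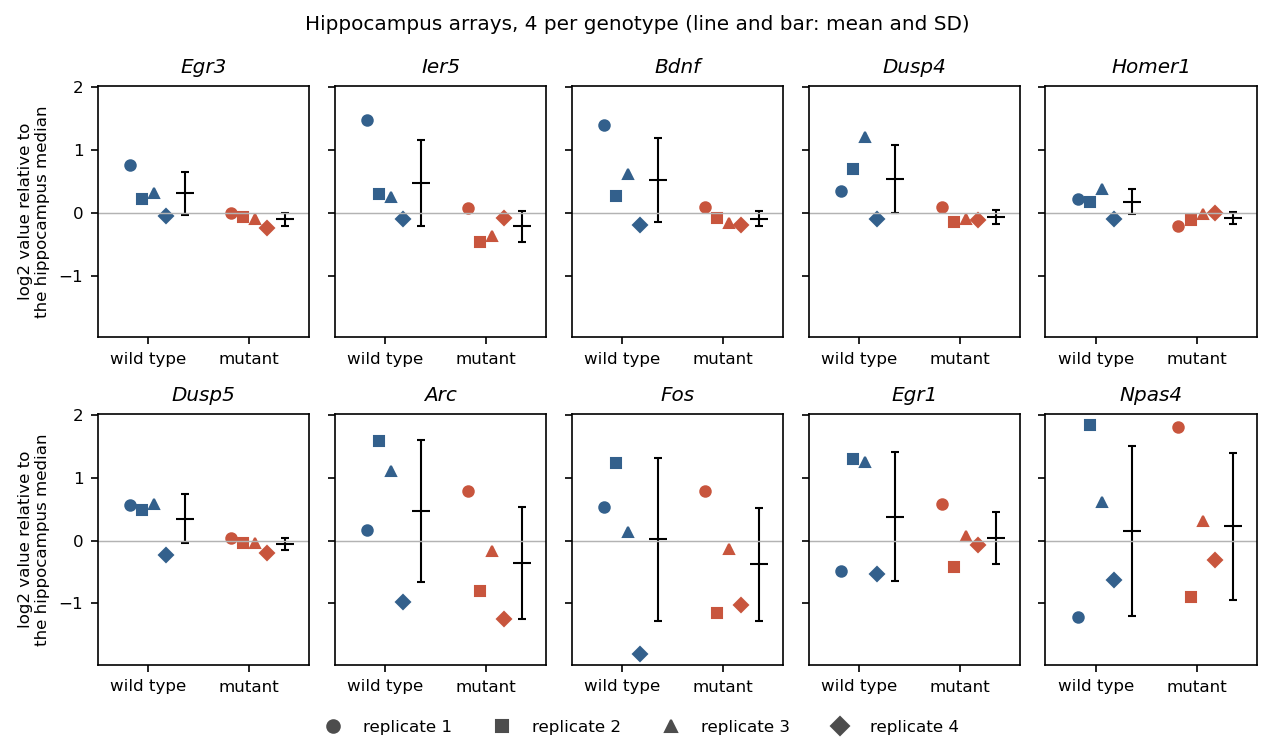
Values of 10 genes in the hippocampus (vertical axis, log2 relative to the hippocampus median), 4 wild types in blue and 4 mutants in red, with marker shape giving the replicate number and the black line and bar the mean and SD. Wild-type replicate 4 lies among or below the mutants in Egr3, Bdnf, Dusp4 and Dusp5, while the other wild types lie above them, and no gene has groups that do not overlap.

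Homer1 encodes a postsynaptic scaffold, and neuronal activity is known to switch its transcript to a short form, Homer1a. Its mean over 6 probe sets was 0.23, 0.17, 0.39 and -0.09 in wild-type hippocampus and -0.21, -0.11, -0.01 and -0.004 in mutants, a difference of -0.26 (SE 0.12, limma adjusted p = 0.61), or -0.11 without the arrays with other tissue. The probe sets did not move alike. Probe set 1436387_at read 1.18, 0.79, 0.92 and -0.61 in wild types and -0.61, -0.62, 0.21 and -0.21 in mutants, a difference of -0.88 (SE 0.32, limma adjusted p over probe sets = 0.59). Probe set 1425671_at read 0.83, 0.38, 0.60 and -0.21 in wild types and -0.21, -0.40, 0.08 and -0.08 in mutants, a difference of -0.55 (SE 0.16). The other 4 probe sets had differences between -0.17 and 0.05. In both probe sets that moved most, wild-type replicates 1, 2 and 3 were above all mutants, and replicate 4 was not. Without the arrays with other tissue their differences were -0.30 and -0.24. The annotation does not say which transcript form each probe set reads.

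**Figure D4:**
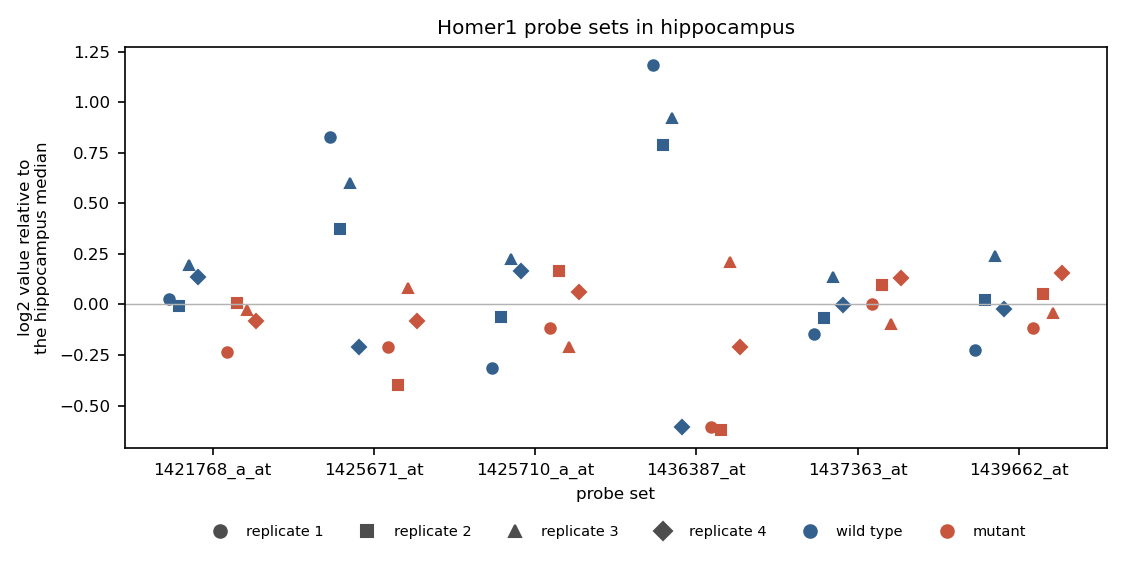
Values of the 6 Homer1 probe sets (horizontal axis) on the 8 hippocampus arrays (vertical axis, log2 relative to the hippocampus median), wild types in blue, mutants in red, with marker shape giving the replicate number. Probe sets 1425671_at and 1436387_at spread from -0.62 to 1.18 with 3 wild types at the top, and the other 4 stay within -0.31 and 0.24.

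Inhba, the subunit of activin A, had the widest gap between probe sets. Probe set 1422053_at read 2.51, -0.08, 0.41 and -0.02 in wild types and -0.18, 0.05, 0.02 and -0.14 in mutants, so 1 array, wild-type replicate 1, set its difference of -0.77. Probe set 1458291_at went the other way, at -0.18, -0.05, -0.24 and -0.17 in wild types and 0.18, 0.16, 0.05 and 0.10 in mutants, with groups that did not overlap and a difference of 0.29 (SE 0.085, limma adjusted p over probe sets = 0.55). Nptx2, a secreted pentraxin that gathers AMPA receptors, had differences of -1.02 and -0.37 in its 2 probe sets, and Egr3 of -0.67 and -0.16. Without the arrays with other tissue, the Inhba probe sets had differences of 0.09 and 0.22 and those of Nptx2 -0.06 and 0.30. Those of Egr3 had -0.26 and -0.08. At the gene level no member had hippocampal groups that did not overlap, a separation seen in 1.52% of genes in the lower direction and 3.24% in the higher.

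The spread among the arrays of a genotype was also set side by side between wild types and mutants. In the hippocampus the SD among the 4 wild types exceeded that among the 4 mutants in 34 of 37 members, against 56.6% of all genes. The median SD of a member was 0.47 in wild types and 0.17 in mutants. Leaving out 1 array at a time gave 30 to 35 of 37, and without wild-type replicate 1 it was 32 of 37, when 43.8% of all genes had the larger SD in wild types. Without the arrays with other tissue it was 34 of 37, against 48.2% of all genes, with only 2 arrays behind each SD. In the cerebellum it was 26 of 37, against 53.0% of all genes, with median SDs of 0.16 and 0.13. This comparison was chosen after the values were seen and has no test.

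Whether the genotype effect differed between regions was tested as hippocampus minus cerebellum. Of 37 members, 31 lay below 0, against 45.1% of genes, with a median of -0.148. None passed the adjusted threshold, nor did any gene (0%). At an unadjusted p under 0.05, 2 members were lower, Egr3 at -0.44 and Ier5 at -0.77, against 2.28% of genes, and 0 were higher, against 3.07%. Their adjusted p was 0.867. The comparisons within each region enter this one, so its counts are not separate evidence.

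The highest values came from a few arrays. In the hippocampus, 16 of 37 members were highest in wild-type replicate 2, among them Fos, Junb, Egr1, Egr2, Nr4a1, Npas4, Arc and Dusp1. A further 10 were highest in wild-type replicate 1, among them Bdnf, Nptx2, Inhba, Ier5, Egr3 and Gadd45b. Those arrays differed in kind, since replicate 1 was also the lowest of all 8 for 10 members, including Npas4 at -1.21. Homer1, Plk2, Dusp4, Dusp5 and Dusp6 peaked in wild-type replicate 3. Of the mutants, replicate 1 was highest for 5 members, Klf2, Klf6, Ier2, Ier3 and Btg2, and replicate 4 was lowest for 8. Wild-type replicate 4 was lowest for 11. Members above 0.5 numbered 11 on mutant replicate 1, against 14, 11 and 10 on wild-type replicates 2, 3 and 1. On each of the other hippocampus arrays there were 0. The extremes of the 8 arrays in the median over members were wild-type replicate 2, at 0.34, and wild-type replicate 4, at -0.18.

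In the cerebellum wild-type replicate 2 was highest for 11 of 37 members and wild-type replicate 4 lowest for 12. Fos, Dusp1, Ier2 and the Nr4a receptors followed one another there. The correlation with Fos over the 8 cerebellum arrays was 0.99 for Dusp1, 0.97 for Ier2, 0.93 for Nr4a2 and 0.92 for both Nr4a1 and Npas4. At or above 0.7 there were 10 of the other 36 members, against 1.71% of all genes. With 1 array left out at a time the count was 8 to 16. The Egr factors, Arc and Bdnf were not among them, with 0.12 for Egr1, -0.21 for Arc and 0.57 for Bdnf.

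In the hippocampus 14 of 36 members reached 0.7 with Fos, against 1.52% of all genes, and the count was 7 without wild-type replicate 2 and 20 without wild-type replicate 1. There Arc at 0.89 and Ier2 at 0.88 were the closest, followed by Junb at 0.85, Trib1 at 0.83, and Gadd45b, Fosl2 and Egr2, each at 0.81. Dusp1 was at 0.79, and Nr4a1 at 0.69 and Npas4 at 0.67 fell short of 0.7. The genes share arrays, and with them the markers of other tissue, so these correlations are descriptions. Only 4 hippocampus arrays lacked such markers, too few to repeat the correlations on them.

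Arrays with the same genotype and replicate number were also set side by side across regions. The labels do not say that such a pair came from the same animal. Over 8 pairs the correlation was 0.89 for Npas4, 0.88 for Nr4a1, and 0.75 for both Fos and Dusp1. It reached 0.5 in 16 of 37 members, against 10.0% of all genes, and the members' median was 0.43 where that of all genes was -0.02. With 1 pair left out at a time the count was 13 to 18. Without the 2 pairs farthest from the median in the cerebellum, the value was 0.79 for Npas4, 0.84 for Nr4a1, 0.70 for Dusp1 and 0.42 for Fos. Dusp1 read 0.59 in cerebellum and 1.33 in hippocampus for wild-type replicate 2, and 0.55 and 1.23 for mutant replicate 1, the highest pairs. For wild-type replicate 4 it read -1.06 and -0.21. Arc, at -0.09, and Egr1, at -0.04, showed no such relation between regions, and both had cerebellar ranges far narrower than their hippocampal ones.

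**Figure D5:**
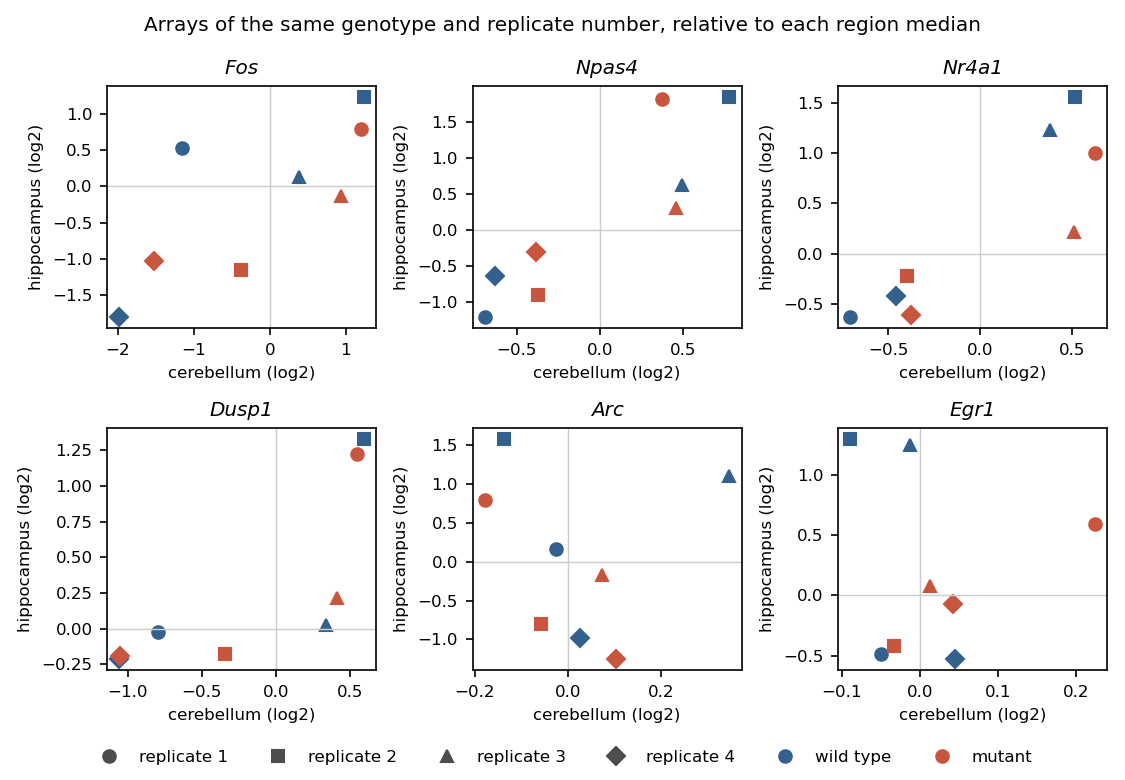
Cerebellum value (horizontal axis) against hippocampus value (vertical axis), both log2 relative to the median of the region, for 6 genes over the 8 pairs of arrays with the same genotype and replicate number, wild types in blue and mutants in red. Points of Npas4, Nr4a1 and Dusp1 run from lower left to upper right, with correlations of 0.89, 0.88 and 0.75, and those of Arc and Egr1 do not.

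Age was compared between arrays of at least 24 months (replicates 1 and 2) and younger ones (replicates 3 and 4), averaged over genotypes, so age and replicate number cannot be told apart. In the cerebellum 0 members were called, as for all genes (0%), and the median was 0.03. At an unadjusted p under 0.05 there were 0 members, against 1.51% of genes lower and 2.20% higher, and 14 of 37 lay below 0, against 47.4% of genes. The members of smallest p there were Plk2 at 0.12, a kinase of synaptic homeostasis, Pim1 at 0.15, a survival kinase, and Jund at -0.10, each with a limma adjusted p of 0.999. Pim1 read 0.09, 0.07, 0.15 and -0.01 in the older arrays (mutants, then wild types) and -0.06, 0.03, -0.11 and -0.17 in the younger ones. Plk2 read -0.01, -0.00061, 0.11 and 0.06 in the older arrays and -0.01, -0.13, -0.21 and 0.02 in the younger ones, in the same order. Jund read 0.03, -0.02, -0.00013 and -0.23 in the older arrays and 0.05, -0.02, 0.10 and 0.05 in the younger ones. The older and younger arrays overlapped in all 3 genes. Arc read -0.18 and -0.06 in older mutants and -0.03 and -0.14 in older wild types, and all 4 younger cerebellum arrays were higher, from 0.03 to 0.35. Such a separation in the lower direction was seen in 0.765% of genes.

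In the hippocampus 31 of 37 members lay above 0 in the older arrays, against 45.3% of genes, and 6 below, against 54.7%, with a median of 0.24. None was called, while 12 genes were (0.0661%). Those with an unadjusted p under 0.05 were 5, all higher (3.44% of genes, with 3.11% lower): Ier3, Gadd45b, Fosb, Nptx2 and Egr3. Ier3, which modulates survival signalling, read 0.56 and -0.12 in older mutants and 0.54 and 0.32 in older wild types, and 0.11, -0.11, -0.59 and -0.18 in the younger arrays in the same order. The older mutant replicate 2 lay among the younger arrays, and the difference was 0.52 (SE 0.13, limma adjusted p = 0.45). Its 2 highest values were on mutant and wild-type replicate 1, both with cerebellar markers, and without the arrays with other tissue the difference was 0.14. Gadd45b read 0.10, -0.11, 0.62 and 0.29 in older arrays and -0.06, -0.25, -0.003 and -0.41 in younger ones, a difference of 0.41 (SE 0.11, limma adjusted p = 0.55). Fosb, of which a truncated product accumulates with repeated activity, read 0.03, -0.30, 0.65 and 0.82 in older arrays and 0.12, -0.03, -0.03 and -0.20 in younger ones, a difference of 0.34 (SE 0.09, limma adjusted p = 0.56). For both, the 2 older wild types were the highest arrays. Jund, named here after its values were seen, had older arrays from 0.008 to 0.095 and younger ones from -0.11 to -0.01, the only member whose hippocampal age groups did not overlap (1.78% of genes in that direction and 1.72% in the lower). Without wild-type replicate 2 the members' median was 0.10 and 14 lay below 0, and without wild-type replicate 1 the median was 0.19 and 3 lay below 0.

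Genes upstream of and alongside the members were taken from lists written with earlier results of these data known. In the hippocampus 13 of 20 measured genes of activity signalling lay below 0 in mutants, against 41.1% of all genes, with a median of -0.07. At an unadjusted p under 0.05, 4 were lower (2.75% of all genes) and 0 higher (5.28%), and 0 were called. Camk4, a nuclear calcium-dependent kinase of CREB, was lower in every mutant than in every wild type, with a difference of -0.30 (SE 0.10, limma adjusted p = 0.49). Such a separation in the lower direction was seen in 1.52% of all genes. With 1 array left out, the Camk4 difference ran from -0.36 without wild-type replicate 2 to -0.19 without wild-type replicate 1, the array with cerebellar markers. Grin2a, a subunit of NMDA receptors, had -0.29 (SE 0.13), and Creb1 itself -0.12 (SE 0.06), or -0.05 without the arrays with other tissue. In the cerebellum 14 of 20 lay below 0, against 46.4% of all genes, with 0 called, and those of smallest p were Crtc1, a CREB coactivator, at -0.16, Mef2d at -0.13 and Crebbp at -0.09.

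Among 34 other activity-regulated genes measured, 27 lay below 0 in mutant hippocampus, against 41.1% of all genes, with a median of -0.15. At an unadjusted p under 0.05, 12 were lower (2.75% of all genes) and 1 higher (5.28%), and 0 were called. Sgk1, a kinase induced by glucocorticoids and activity, had a difference of -0.31 (SE 0.05, limma adjusted p = 0.083). Its groups did not overlap, as in 1.52% of all genes in the lower direction. The difference ran from -0.35 without mutant replicate 4 to -0.28 without mutant replicate 2. Ptgs2, the inducible cyclooxygenase, had -0.69 (SE 0.15, limma adjusted p = 0.23), which became -0.90 (limma adjusted p = 0.00025) when wild-type replicate 4 was left out. It was -0.35 without the arrays with other tissue. Nrn1, a neurite outgrowth factor, had -0.36 (SE 0.12), or -0.14 without those arrays. In the cerebellum 14 of 34 lay below 0, against 46.4% of all genes, with 0 called. Sgk1 there had -0.11, Per1, a clock gene, -0.33 (SE 0.20), and Lonrf1 0.19.

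Glucocorticoid-responsive genes and heat shock genes were counted in the same way. Of 14 glucocorticoid-responsive genes, 8 lay below 0 in mutant hippocampus and 7 in mutant cerebellum, against 41.1% and 46.4% of all genes, with medians of -0.02 and 0.003. Sgk1, Per1 and Errfi1, given above under other lists, belong to this list as well. Fkbp5, a cochaperone of the glucocorticoid receptor, had -0.12 in hippocampus and Errfi1 -0.13, and Tsc22d3 had -0.12 in cerebellum. Of 12 heat shock genes, 6 lay below 0 in hippocampus and 4 in cerebellum. Hsph1, Dnaja1 and Hspb1 had -0.18, -0.07 and -0.45 in hippocampus, and 0.02, -0.03 and 0.09 without the arrays with other tissue. Hspe1, Hspd1 and Dnaja1 had 0.11, 0.08 and 0.09 in cerebellum. None of these genes was called.

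No cell type marker was called for genotype in the hippocampus, but their lists leaned in different directions, where 41.1% of all genes lay below 0. Those mostly below 0 in mutants were dentate granule neurons (8 of 10), Purkinje cells (7 of 8), cerebellar granule neurons (7 of 9), microglia (7 of 9), thalamic neurons (6 of 8), blood cells (5 of 6) and astrocytes (5 of 8). Few or none lay below 0 for meninges (0 of 10), oligodendrocytes (0 of 8), choroid plexus (1 of 10), interneurons (2 of 11), ependymal cells (2 of 9) and endothelial cells (2 of 9). Pyramidal neurons had 4 of 9, and striatal and cortical neurons 3 of 6. For some lists the median array went against the count. Cerebellar granule marker means had a median of 0.115 in mutants and -0.105 in wild types, with 2.40 on wild-type replicate 1. Purkinje means had medians of 0.025 and -0.052, with 1.50 on that array. Choroid plexus means had medians of -0.032 and 0.018, with 2.05 on mutant replicate 4. Markers higher at an unadjusted p under 0.05 (5.28% of all genes) included 6 of interneurons, 4 of ependymal cells, 4 of meninges and 1 of pyramidal neurons. Those lower (2.75%) were 2 each of dentate granule neurons, pyramidal neurons and blood cells, and 1 of Purkinje cells. The mean of the dentate markers per array ran from -0.17 to 0.06 in mutants and from -0.23 to 0.39 in wild types. That of the meningeal markers ran from -0.07 to 1.05 and from -0.40 to -0.02, and that of the ependymal markers from -0.03 to 0.40 and from -0.30 to -0.01. Interneuron means lay between 0.042 and 0.105 in mutants and between -0.196 and 0.041 in wild types, and blood cell means between -0.142 and -0.039 and between -0.006 and 0.983, so both lists separated the genotypes, the first narrowly. The part of these differences in the values of the early genes was not tested.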

How the data were processed

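Biotin-labelled cRNA from 5 ug total RNA, extracted with Trizol, was hybridised to Affymetrix arrays, per the labels' protocols. Per the submitters' processing notes, GCOS 4.0 was used. How probes were summarised and arrays normalized is not given in the sources used here. The authors deposited log-scale values, which were read as log2 values. For 99.9% of probe sets the median over the 8 arrays of a region lay within 1e-05 of 0, so they are relative. The log base is not stated, and with base e every difference would be multiplied by 1.44. One text field of the hippocampus samples says cerebellum, but their title, source and tissue entries were followed. The number of arrays limits the precision.

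Of 45101 probe sets, 64 controls and 133 with an empty value were left out, 34843 had 1 symbol, 931 several and 9130 none. A gene's value was the mean over its probe sets with 1 symbol. R 4.3.3 and limma 3.58.1 gave 1 fit over the 16 arrays, with 4 group means (12 residual degrees of freedom; for age, 8 groups and 8 degrees of freedom), two-sided, with Benjamini-Hochberg adjustment over 18168 genes and a threshold of 0.05. Both regions shared the estimate of a gene's spread. Where a gene varied more in the hippocampus, its SE there can be too small and that in the cerebellum too large. The fits were tested on simulated data. The labels call the arrays biological replicates without naming animals, so the p-values cover only the spread among these arrays, which may be technical. The replicate number was tried as a block, and over all genes it did not pair arrays of opposite genotype. A pairing of cerebellum and hippocampus arrays of the same genotype and number was not modelled, so the fit treated them as independent. Over all genes, in order of replicate number, such pairs had correlations of 0.13, 0.07, -0.17 and -0.12 in mutants. In wild types they were 0.07, -0.05, -0.03 and 0.17.

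Members and lists were chosen with earlier results of these data known. Named genes were Fos, Arc, Egr1, Npas4 and Bdnf, per region the 6 members of smallest p of the genotype contrast and any whose groups did not overlap, the 3 of smallest p for age, and the 3 of smallest p of each pathway list. Other genes named were chosen after their values were seen. A filter on dim probe sets needs a level, so leaving out the less variable genes was the alternative in its place. Promoters and motif shares are from RefSeq on GRCm38.p6.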

Additional observations from a re-analysis of the deposited data

Results flagged for a closer look

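Of 54 groups of 4 arrays examined among the named members, 4 held an array whose gap to its nearest neighbour divided by the group's whole range exceeded Dixon's critical value, and chance alone would flag about 1 in 20 groups. Dusp4 read 0.96 on mutant cerebellum replicate 3, where the other mutants lay between -0.34 and -0.15. In mutant hippocampus Dusp4 read 0.0911 on replicate 1, above the other 3 mutants at -0.14 to -0.11, and that array also carried cerebellar granule and meningeal markers, whose part in the value was not tested. Dusp5 read -0.22 on wild-type hippocampus replicate 4, with the other wild types between 0.48 and 0.59. Plk2 read -0.13 on mutant cerebellum replicate 4, with the other mutants between -0.015 and -0.0006.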

How the results depend on the processing

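No member was called for genotype or for the difference between regions under any of the settings run. In mutant hippocampus the count of members below 0 stayed between 23 and 34 over all settings, against 28, and the median between -0.302 and -0.066. With the replicate number as a block 0 genes were called in cerebellum, in hippocampus and for the difference between regions. Each group held every replicate number once, so this block could change the standard errors but no difference. The member medians of 0.028, -0.195 and -0.148 were therefore those of the main fit by design and are no check. Same-number arrays of opposite genotype had correlations of 0.04, -0.19, 0.05 and -0.07 in cerebellum and 0.23, -0.07, 0.02 and -0.03 in hippocampus.

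Counts over all genes moved more. For genotype in hippocampus, 0 genes called became 1 with quantile normalization, 8 in the more variable part of the genes, 2 with robust variances and 3 without the arrays with other tissue (2 mutants against 2 wild types), and 0 to 7 with 1 array left out. For the difference between regions it was 2 without the arrays with other tissue and 0 to 1 with 1 array left out, where the member median ran from -0.292 to -0.083. For age in hippocampus, 12 genes became 6 by probe set, 22 in the more variable part, 0 with the region's arrays alone, 2 without the arrays with other tissue and 0 to 627 with 1 array left out. The 627 came without wild-type replicate 2, when 6 members were called (Egr3, Gadd45b, Ier3, Ier5, Inhba and Nptx2), against 0 to 6 over the arrays left out. Without the arrays with other tissue 1 member was called, Egr2, and 2 lay below 0, but this leaves 1 hippocampus array per genotype and age class, each assumed to vary like the cerebellum groups. With 1 array left out 3 to 14 lay below 0. For age in cerebellum, 0 genes became 3 with quantile normalization, 1 with the region's arrays alone and 0 to 24 with 1 array left out, and 9 to 20 members lay below 0. The cause of these moves was not tested.

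Some named genes changed sign, none of them called in either case. Npas4 in hippocampus was -0.29 with quantile normalization, -0.42 with array weights, -0.0224 with age as a covariate, -0.90 without the arrays with other tissue and -0.45 to 0.64 with 1 array left out. Npas4 in cerebellum was -0.0667 with age, -0.19 without the arrays with other tissue and -0.19 to 0.30 with 1 array left out. Bdnf in cerebellum was 0.0163 with array weights and -0.138 to 0.0764 with 1 array left out. Without the arrays with other tissue Hsph1 was 0.0163 and Hspb1 0.0945 in hippocampus. With 1 array left out, Nr4a3 ran from -0.25 to 0.00298, Arc from -0.13 to 0.0306 and Fos from -0.10 to 0.98 in cerebellum, and Hspb1 from -0.73 to 0.17 in hippocampus.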
